A study of Mus musculus with 258 samples.

Results

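The immunoglobulin heavy chain, kappa and lambda loci were examined for chromatin loops in resting and activated mouse B cells. Hi-C counts ligation contacts between pairs of genomic positions, and a loop is a pixel of 5 by 5 kb, given by its 2 anchors, with more contacts than the pixels around it. A loop was taken as a member when the start of either anchor (mm9) lay in 1 of 3 windows: chromosome 12 from 113800000 to 117500000 for the heavy chain, chromosome 6 from 67000000 to 71200000 for kappa, and chromosome 16 from 18500000 to 19800000 for lambda. Of the 6181 loops in both lists, 27 were members, 8 of the 1866 resting loops and 19 of the 4315 activated loops. The windows are wider than the immunoglobulin genes, so a member can link sequence beside the locus. No annotation of mm9 was used, and no anchor was assigned to a gene.

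All cells were splenic B cells from wild-type C57BL6/J mice aged 6 to 8 weeks, isolated by negative selection. Resting cells had no treatment (0 h), and activated cells had received lipopolysaccharide (LPS) at 50 µg/mL, an antibody to CD180 (RP105) at 0.5 µg/mL and interleukin 4 at 2.5 ng/mL for 72 h. The labels give 8 resting and 26 activated Hi-C libraries, but the lists hold 1 pooled set of loops per state, so no value has replicates and no test between states was possible. The activated list carries no time in its name, and 72 h was taken from the deposited description of the maps. Donut-expected counts at the 1212 loops paired between the lists had a median activated over resting ratio of 1.55, which was used as the relative depth of the maps. Observed counts ran from 19 to 999 per resting loop and from 14 to 932 per activated loop.

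Immunoglobulin chains are assembled from separate gene segments: V(D)J recombination joins variable, diversity and joining segments in the heavy chain locus, and variable and joining segments in the light chain loci, with loss or inversion of the DNA between them. The heavy chain locus then supports class switch recombination, in which activated B cells replace Ighm, the constant gene of IgM, by a downstream constant gene and delete the DNA in between. LPS with interleukin 4 is a widely used stimulus for switching to Ighg1, the constant gene of IgG1. An intronic enhancer beside the joining segments and a 3' regulatory region beyond the last constant gene are the best known enhancers of the heavy chain locus, and contact between them is a known feature of mature B cells. Igkc encodes the kappa constant region, and Iglc1 encodes 1 of the lambda constant regions. In the RefSeq annotation of GRCm38.p6, used for names and order only, the heavy chain constant genes run from low to high coordinates as Igha, Ighe, Ighg2c, Ighg2b, Ighg1, Ighg3, Ighd and Ighm. The 120 annotated heavy chain V segments lie above them. Igkc lies above its 102 annotated V segments, with Rpia as the nearest protein-coding gene beyond it. The lambda constant genes run as Iglc1, Iglc3 and Iglc2, and the locus has 3 annotated V segments.

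Activated cells had more called loops than resting cells in each of the 3 windows. The heavy chain window held 3 resting and 11 activated loops, the kappa window 3 and 4, and the lambda window 2 and 4. The kappa direction did not hold throughout: with both anchors required in the window kappa had 2 resting and 1 activated loops, with all q-values at most 0.01 it had 3 and 3, and after thinning to the resting depth and Poisson limits it had 3 and 2. Over the 3 windows the activated over resting ratio was 2.38, with an exact conditional binomial 95% interval of 0.993 to 6.27, beside 2.31 over the whole genome. The heavy chain ratio was 3.67 (0.969 to 20.5), the kappa ratio 1.33 (0.226 to 9.10) and the lambda ratio 2.00 (0.287 to 22.1). Each of these intervals included both 1 and the genome-wide ratio, so at these counts no window was distinguishable from the genome. The interval over the 3 windows left out 1, but not the genome-wide ratio, with windows widened by 500 kb (2.78, 1.25 to 6.76) and with loops of at least 2 merged pixels (3.60, 1.29 to 12.4). It included both with both anchors required in the window (2.14, 0.822 to 6.21). The same held with all q-values at most 0.01, and after thinning to the resting depth and Poisson limits (1.75, 0.685 to 4.81 in each case). The intervals cover counting error only, and loops of a window share anchors. Per Mb, the windows together held 0.870 resting and 2.07 activated loops, beside 0.722 and 1.65 genome-wide (from chromosome start to last loop). These values are not counted alike, since the windows include loops with 1 anchor outside, 5 of the 27 members. With both anchors required inside, 7 resting and 15 activated loops were left, so the windows are not read as denser than the genome.

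**Figure D1:**
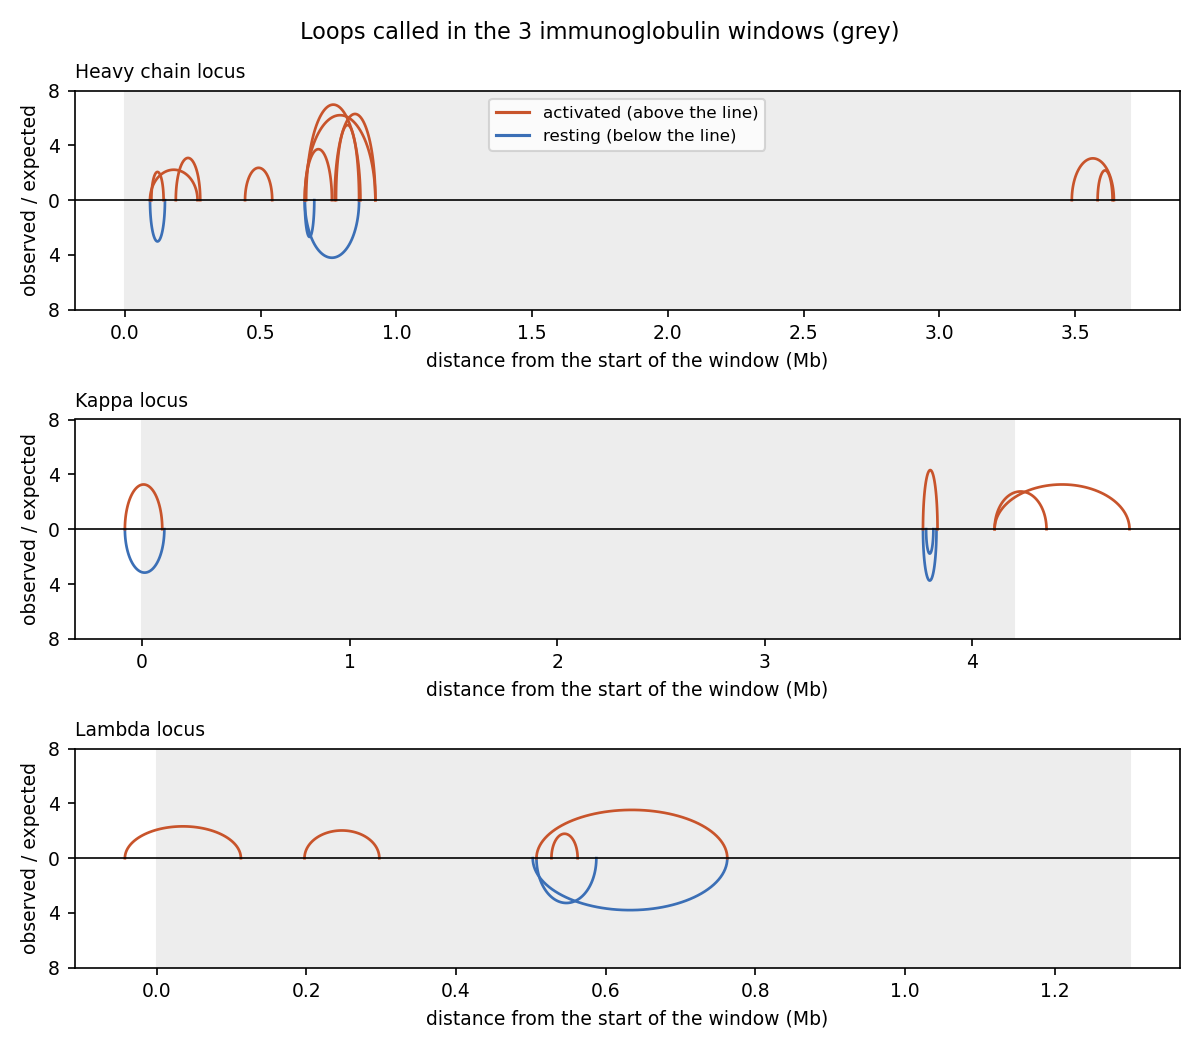
Loops of the heavy chain, kappa and lambda windows (grey), with the distance from the start of each window in Mb on the horizontal axis and the height of each arc giving the observed over donut-expected count, activated above the line and resting below it. In the heavy chain window the highest activated arcs, up to 6.97 times the expected count, lie together within 265 kb, and a stretch of 2.56 Mb to their right has no loop in either state.

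A loop counted as called in both states when each anchor lay at most 20 kb from the matching anchor in the other list. By this rule 6 of the 8 resting loops had a match in activated cells (75%, Wilson 95% interval 40.9 to 92.9), beside 65.2% of all resting loops. Of the 19 activated loops, 5 were also called in resting cells (26.3%, 11.8 to 48.8), beside 28.3% of all activated loops. Both shares are near the genome-wide ones under this rule. With anchors not widened, so that pixels had to be the same, no member was shared, beside 24.1% of all resting and 10.4% of all activated loops. The 14 activated-only loops were spread as 9 in the heavy chain, 2 in the kappa and 3 in the lambda window. Of these 14, 10 had no anchor used in resting cells. No share over all activated-only loops was set beside this count, so it is not read as a trait of the loci. The 2 resting-only loops lay 1 in the heavy chain and 1 in the lambda window. Lengths ran from 35 to 260 kb in resting cells (median 72.5 kb) and from 35 to 650 kb in activated cells (median 150 kb), beside genome-wide medians of 90 and 140 kb.

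The 4 strongest loops of the 3 loci, and 1 loop of lower strength, joined 4 positions near the low end of the heavy chain window in activated cells. Anchor 1 lay on chromosome 12 from 114460001 to 114470000, anchor 2 from 114560001 to 114580000, anchor 3 from 114660001 to 114670000 and anchor 4 from 114720001 to 114725000, each after merging of anchors within 10 kb. Of the 6 possible pairs of these anchors, 5 were called as loops in activated cells and 1 in resting cells. These anchors were chosen as a group with the values in view. Anchor 2 is 1 position only through the merging, and the 5 of 6 pairs depend on it. The loop toward anchor 1 ended at the pixel from 114560001 to 114565000. Those toward anchors 3 and 4 began at 114575001 and 114570001. The pair of anchors 1 and 3 was called in both states, and every other loop of the group was called in activated cells alone. No resting loop ended on anchor 2 or anchor 4, and each of these had at least 2 activated loops. The neighbouring pair of anchors 3 and 4, 57.5 kb apart, was not called in either state.

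The loop between anchors 1 and 3 had 89 contacts in resting cells at 4.20 times the expected count, and 85 contacts in activated cells at 6.97 times. It was the strongest member in both states. Anchors 1 and 2 were joined in activated cells by 188 contacts, the highest observed count of the members, at 3.72 times expected (exact Poisson 95% interval 3.21 to 4.30). Anchors 2 and 3 were joined by 172 contacts at 5.48 times expected (4.69 to 6.36). Anchor 2 lies between anchors 1 and 3, so in activated cells the long loop and both shorter ones within it were called. The loops that ended on anchor 4 had fewer contacts. Anchors 1 and 4 were joined by 42 contacts at 6.20 times expected (4.47 to 8.37), and anchors 2 and 4 by 23 contacts at 6.29 times (3.99 to 9.44). The low count of the last loop makes it the least certain of the 5.

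**Figure D2:**
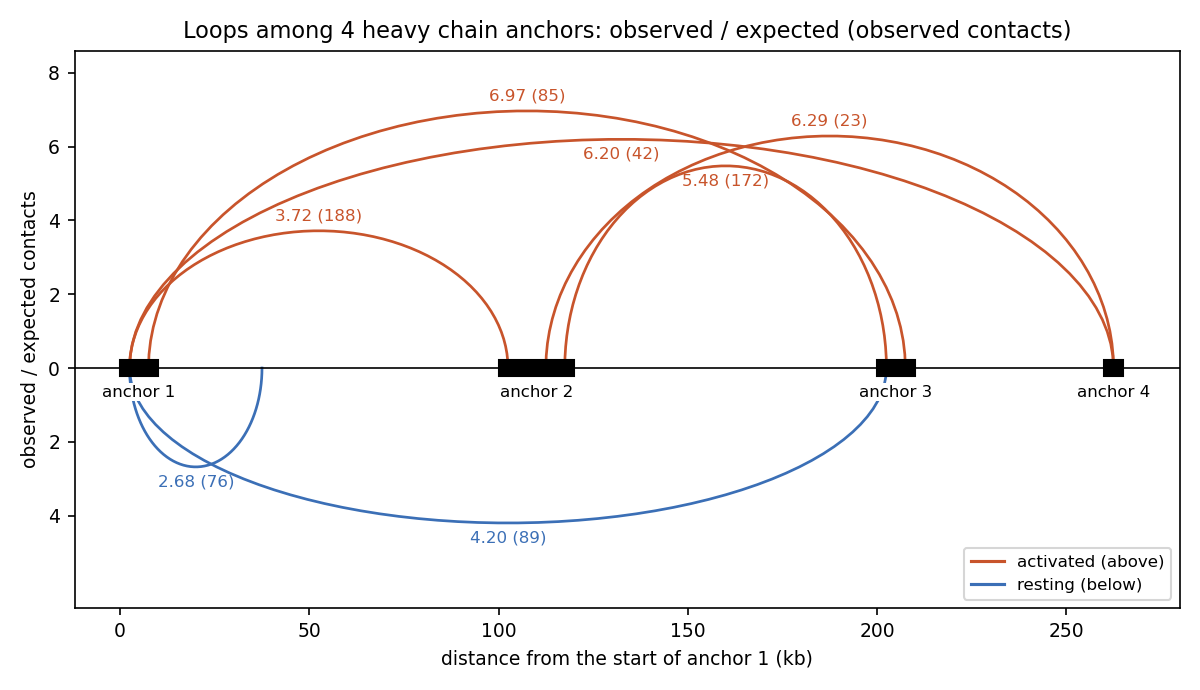
Loops among the 4 heavy chain anchors (black boxes), with the distance from the start of anchor 1 in kb on the horizontal axis and the observed over expected count as arc height, activated above and resting below. Each arc carries its ratio and, in brackets, its observed contacts. Activated cells had 5 loops at 3.72 to 6.97 times the expected count. In resting cells, 1 loop at 4.20 joined anchors 1 and 3, and a shorter one at 2.68 ended between anchors 1 and 2.

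In their own list, 4 of these 5 activated loops stood high. The loop of anchors 1 and 3 exceeded 98.4% of all activated loops in strength, that of anchors 2 and 4 exceeded 97.9%, that of anchors 1 and 4 exceeded 97.7% and that of anchors 2 and 3 exceeded 96.3%. The loop of anchors 1 and 2 exceeded 80%. At 5 or more times the expected count, a mark set after the values were seen, stood 4 of the 19 activated members, all of them in this group, beside 5.38% of all activated loops. None of the 8 resting members did, beside 3.22% of all resting loops. The other 14 activated members had ratios of 1.78 to 4.31. Sets of 4 anchors with at least 5 of 6 pairs called occurred in 28 separate regions outside chromosome Y in the activated list and in 4 in the resting list, so this arrangement is not particular to the heavy chain.

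**Figure D3:**
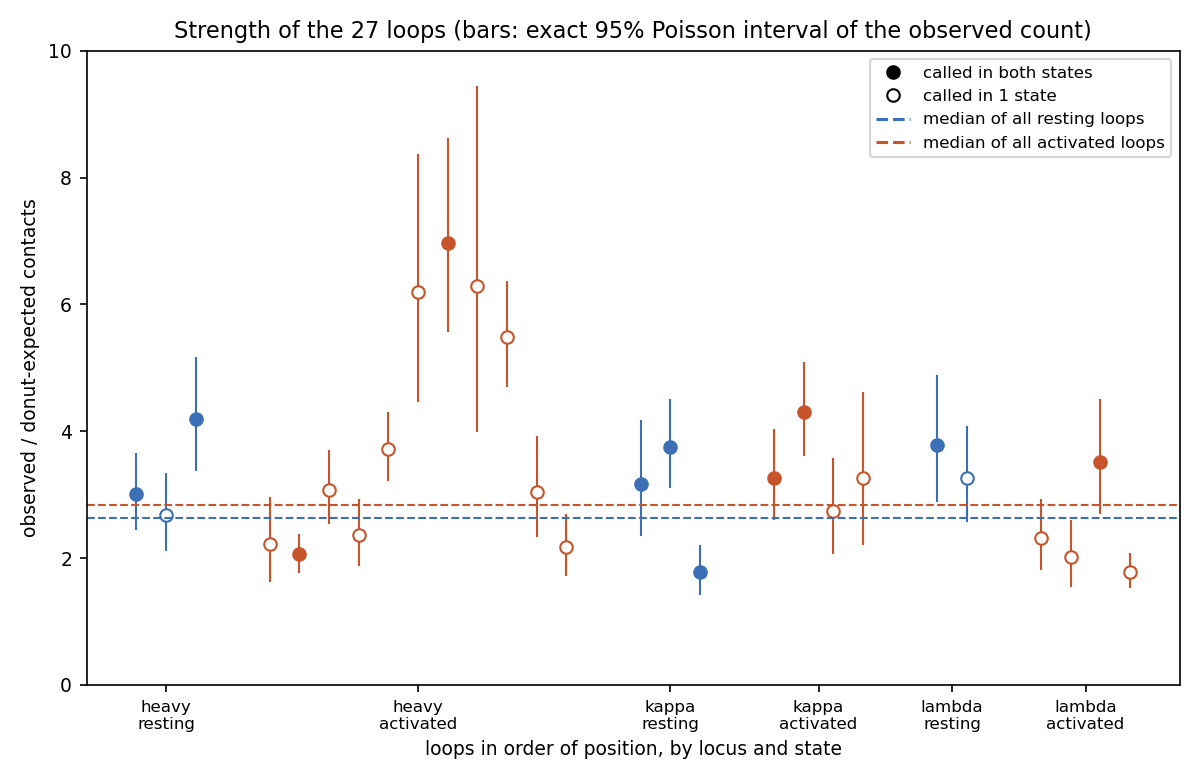
Observed over donut-expected contacts of all 27 loops, in order of position within each locus and state, with exact 95% Poisson intervals of the observed count as bars. Filled points are loops called in both states, open points loops called in 1 state, and dashed lines the medians of all loops (2.63 resting, 2.84 activated). The 4 points above 5 are heavy chain loops of activated cells.

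The high ratios of this group went with low expected counts at 3 of its 5 loops. Strength is the observed count over the count expected from pixels around it (the donut), so it can rise through either. Loops were compared with those of the same list within 20% of their length. The loop of anchors 2 and 4 had an expected count of 3.65 against a median of 23.1 at like length (0.158 of it), and 3 of 908 loops of like length had a lower one. For anchors 1 and 4 the values were 6.78 against 17.3 (0.391), with 27 of 600 lower. For anchors 1 and 3 they were 12.2 against 20.0 (0.609), with 106 of 816 lower. The loops from anchor 2 to its nearest neighbours had no such deficit. Anchors 1 and 2 had an expected count of 50.5 against 29.7 (1.70), above 786 of 827 loops, and anchors 2 and 3 had 31.4 against 33.7 (0.933). Relative to like length, expected counts were thus high for anchors 1 and 2 and near the median for anchors 2 and 3. They were below it for anchors 1 and 3, and lowest for the loops that reached anchor 4. Whether reads can be placed uniquely at these anchors was not tested.

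**Figure D4:**
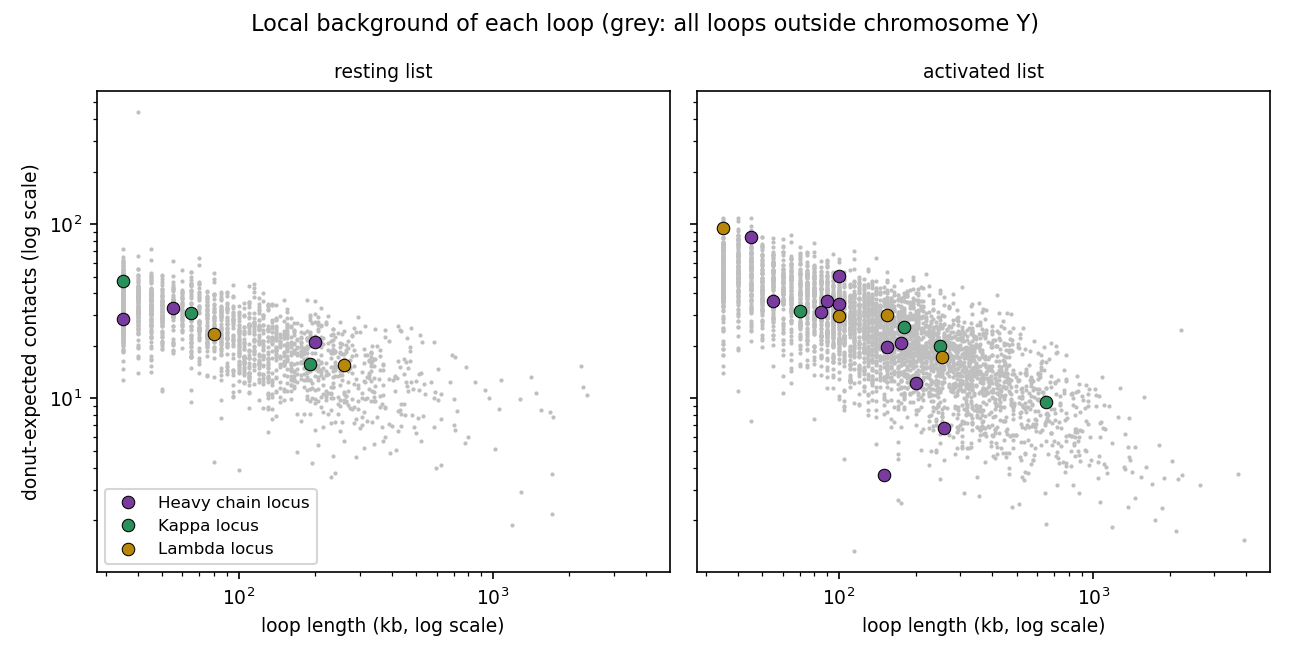
Donut-expected contacts against loop length, both on log scales, for the resting list (left) and the activated list (right). Grey points are all loops outside chromosome Y and coloured points the loops of the 3 loci. The lowest coloured point in the activated list, a heavy chain loop of 150 kb with an expected count of 3.65, lies below nearly all grey points of its length. The resting heavy chain loop of 200 kb, at 21.2, lies within them.

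Between the states, the loop of anchors 1 and 3 gained strength while its contacts did not rise. Its activated copy lay 1 pixel higher at each end, from 114465001 to 114670000 against 114460001 to 114665000 in resting cells. The counts of the states thus come from different pixels, and the part of this shift in the changes given here was not tested. The log2 ratio of strengths, activated over resting, was 0.73 (counting SE 0.22, interval 0.30 to 1.16, expected counts taken as fixed). Among the 1212 pairs, 8.25% were higher and 4.46% lower in activated cells with a 95% interval that left out 0, and this rise ranked 24 from the highest. The observed count was 0.955 of the resting one, and 48 of 1212 pairs had a lower ratio of observed counts. The expected count fell from 21.2 to 12.2, to 0.575 of the resting value, although the median pair had 1.55 times as many. Only 5 of the 1212 pairs had a lower ratio of expected counts, and 1 of the 385 pairs of 100 to 200 kb did. The fall was seen against each of the 4 local backgrounds, at 0.575 with the donut, 0.394 with the lower left, 0.708 with the horizontal and 0.446 with the vertical background. Read against depth instead of the surroundings, the direction turned: the observed count over the depth ratio gave a log2 value of -0.70. In the resting list its expected count was 1.33 times the median of like length.

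The resting-only loop of the heavy chain window shared anchor 1. It ran from 114460001 to 114500000, 35 kb long and thus at the shortest length in either list, with 76 contacts at 2.68 times expected. It was made of 1 enriched pixel. Its far anchor, from 114495001 to 114500000, was not used by any activated loop. From anchor 1, resting cells thus had called partners at 35 and 200 kb, and activated cells at 100, 200 and 260 kb.

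Below this group, the heavy chain window held 1 resting and 4 activated loops. The loop called in both states ran from 113890001 to 113950000 in resting cells, with 100 contacts at 3.01 times expected. In activated cells it ran from 113895001 to 113945000, with 174 contacts at 2.06 times. Its log2 ratio of strengths was -0.55 (SE 0.18, interval -0.90 to -0.19). Here the expected count rose more than at most pairs, from 33.2 to 84.6 (2.55 times, with 96.0% of pairs lower). The activated pixel joined positions 45 kb apart and the resting one 55 kb apart. By the centres of the merged pixels the activated loop was the wider one, at 113895000 and 113950714 against 113897500 and 113945357. The part of such differences in the rise was not tested. Over the depth ratio the observed count gave a log2 value of 0.16, so the direction of this change also depended on the reference. The activated-only loops ran from 113890001 to 114070000 (46 contacts, 2.22 times), from 113985001 to 114080000 (111 contacts, 3.08 times) and from 114240001 to 114345000 (82 contacts, 2.36 times). The first and second of these ended within the same merged anchor, from 114065001 to 114080000.

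At the high end of the heavy chain window, activated cells had 2 loops and resting cells had none. They ran from 117285001 to 117445000 with 60 contacts at 3.05 times expected, and from 117380001 to 117440000 with 79 contacts at 2.17 times. Their right ends fell in the same merged anchor. Between anchor 4 and this pair no loop of either state had an anchor over 2.56 Mb, from 114725001 to 117285000. Genome-wide, 190 of 7301 intervals between neighbouring anchors were as long or longer (2.60%), and the median was 95 kb. This share is by number of intervals. Long intervals cover a larger share of the genome than that, which was not computed, so the stretch is not read as unusual. Whether reads can be placed uniquely in this stretch was not tested.

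The kappa window held resting loops at its low edge and near its high end, and each had a match in activated cells. A loop from 70760001 to 70830000 was called in resting cells with 116 contacts at 3.75 times expected, the highest ratio of the 3 resting kappa loops. In activated cells it ran from 70760001 to 70835000 with 136 contacts at 4.31 times, the highest ratio of the activated members outside the heavy chain. The log2 ratio of strengths was 0.20 (SE 0.18), and its interval of -0.16 to 0.56 included no change. The expected counts were nearly equal, 30.9 and 31.6, a ratio of 1.02 against the genome-wide median of 1.55, and 90 of 1212 pairs had a lower one. Over the depth ratio the observed count gave a log2 value of -0.40. A shorter resting loop nested inside it, from 70775001 to 70815000, had 84 contacts at 1.78 times expected, just above the lowest ratio of the resting list (1.75). It matched the same activated loop within the tolerance, and the activated list thus held 1 loop where the resting list held 2.

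The loop at the low edge of the kappa window began outside it. It ran from 66915001 to 67110000 in resting cells with 50 contacts at 3.17 times expected, and to 67100000 in activated cells with 84 contacts at 3.26 times. Its log2 ratio was 0.04 (SE 0.26, interval -0.46 to 0.55), and its expected counts rose 1.63 times, close to the genome-wide 1.55. The activated-only kappa loops shared an anchor at the high edge, from 71105001 to 71110000. They ended outside the window, at 71360000 (55 contacts, 2.75 times) and at 71760000 (31 contacts, 3.26 times). The latter, 650 kb long, was the longest of the 27 members. With both anchors required inside the window, 2 resting and 1 activated kappa loops were left. Between 67110001 and 70760000, a stretch of 3.65 Mb, no loop of either state had an anchor, and 119 of 7301 intervals (1.63%) were as long or longer. Here too the share is by number of intervals and not by the length of genome they cover. Whether reads can be placed uniquely in this stretch was not tested either.

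The lambda window kept its longest loop. It ran from 19000001 to 19265000 in resting cells with 59 contacts at 3.79 times expected, and from 19005001 to 19265000 in activated cells with 61 contacts at 3.52 times. The log2 ratio was -0.11 (SE 0.26), with an interval of -0.62 to 0.41 that included no change. With the horizontal background it was 0.08, and from observed counts over the depth ratio it was -0.59. Expected counts were 15.6 and 17.4, a ratio of 1.11, and 138 of 1212 pairs had a lower one. Each state had 1 shorter loop within this span. In resting cells it ran from 19005001 to 19090000 with 76 contacts at 3.27 times expected. In activated cells it ran from 19025001 to 19065000 with 169 contacts at 1.78 times, over an expected count of 94.8 that was above 356 of the 363 activated loops of like length. Their pixels lay 20 kb apart at the lower end, within the tolerance, and 25 kb apart at the upper end, beyond it, so both counted as called in 1 state. The centres of the merged pixels that the authors give lay closer, at 19007500 and 19087500 in resting cells and at 19007500 and 19074166 in activated cells, and by these centres the loops matched. The remaining activated-only loops lay below, from 18455001 to 18615000 (70 contacts, 2.32 times) and from 18695001 to 18800000 (60 contacts, 2.02 times). The latter had the highest q-value of the members, 0.0821, close to the highest of the activated list (0.0998).

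The 5 loop pairs of the 3 loci were compared by their contacts in both states. None of them had the same pixel in both states, while 24.1% of all resting loops had such a match. The part of these shifts in the ratios was not tested. In raw counts, 4 of the 5 had more observed contacts in activated cells, at 1.03 to 1.74 times. The loop of heavy chain anchors 1 and 3 was the exception at 0.955, and 4.95% of all pairs were below 1. The median of all pairs was 1.60. Expected-count ratios lay below the median of 1.55 for the pairs from 114460001 on chromosome 12 (0.575), 70760001 on chromosome 6 (1.02) and 19000001 on chromosome 16 (1.11). The pairs from 113890001 on chromosome 12 and from 66915001 on chromosome 6 stood above it at 2.55 and 1.63. Where these pairs lie relative to the immunoglobulin genes was not determined. A ratio of expected counts below 1 was found for 6.44% of all pairs and for 1 of these 5. With the donut background no pair of the loci changed in strength by over 2-fold, beside 0.413% of all pairs that rose and 0.248% that fell by that much. With the lower left and vertical backgrounds the loop of heavy chain anchors 1 and 3 rose by more than that, with log2 ratios of 1.28 and 1.10.

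**Figure D5:**
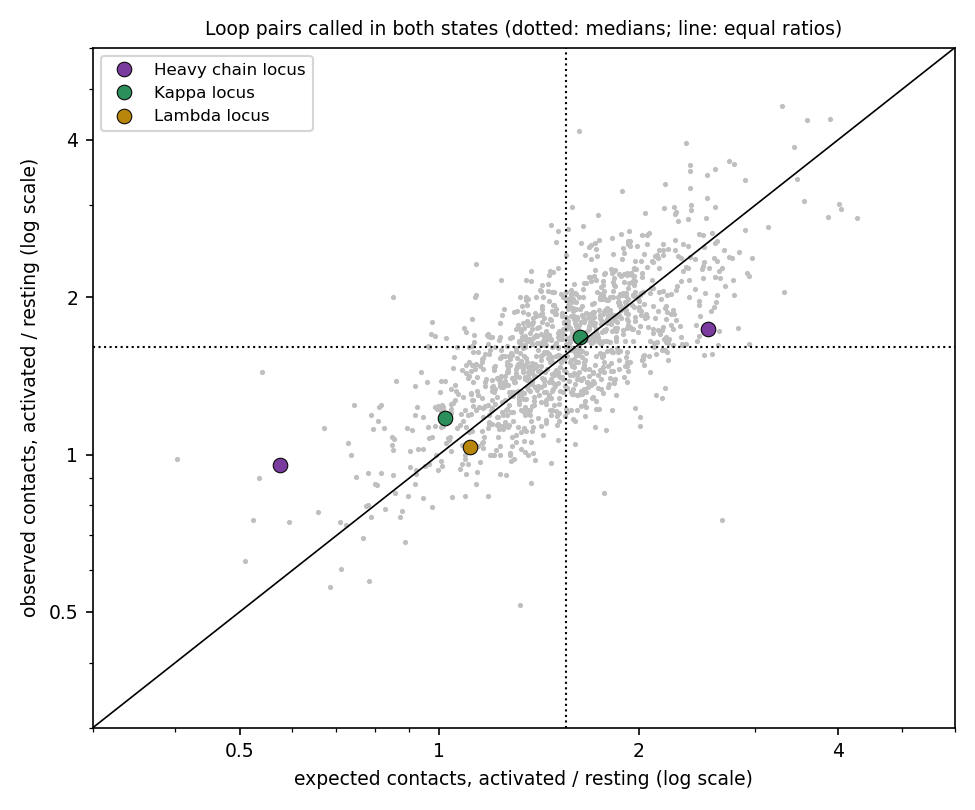
Activated over resting ratio of observed contacts (vertical) against that of donut-expected contacts (horizontal), both on log scales, for the 1212 loop pairs called in both states (grey) and the 5 pairs of the immunoglobulin loci (coloured). Dotted lines are the medians of all pairs and the solid line marks equal ratios, that is, no change in strength. The heavy chain pair at 0.575 and 0.955 lies far to the left of most pairs and above the line. The other heavy chain pair, at 2.55 and 1.74, lies below it.

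After merging, the members used 30 anchors, 12 in resting and 28 in activated cells, and 10 in both. Of the 30, 2 were used in resting cells alone, the far ends of the short loops of the heavy chain and lambda windows. Genome-wide, the lists used 3113 resting and 6521 activated merged anchors. No genome-wide share of anchors used in both states was set beside these counts. Anchors 1 and 2 of the heavy chain group each had 3 loops in activated cells, the most of any member anchor. In all, 2 of the 28 activated anchors had at least 3 loops, beside 5.44% of all activated anchors, and none of the 12 resting anchors did, beside 2.60%.

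The loops nearest to the window limits, on both sides of them, show where the rule separated members from other loops. Below the heavy chain window the nearest activated loop ran from 113740001 to 113780000, its upper anchor starting 25 kb outside the limit, with 99 contacts at 1.98 times expected. The first activated members inside stood at 2.22 and 2.06 times. Below the kappa window an activated loop from 66915001 to 66980000 (84 contacts, 2.28 times) started at the same pixel as the member to 67100000 (3.26 times) and had its upper anchor start 25 kb outside the limit. Above it, the nearest activated loop began 50 kb outside, at 71250001, at 2.46 times. Around the lambda window the anchors of the nearest loops started 285 kb or more outside.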

How the data were processed

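In situ Hi-C of resting and activated splenic B cells was analysed from 1 deposited loop list per state; 59 other Hi-C libraries and 165 libraries of other assays were not used. Per the submitters' processing notes, BWA, Juicer and the build mm9 were used, with neither versions nor a loop caller (not given in the sources used here). Each loop carries, as the authors deposited it per the file headers, for each loop an observed count (raw contacts of a 5 kb pixel), expected counts from 4 local backgrounds, a q-value for each, the number of merged pixels and their centre. Positions are those of the reference order of segments, and a loop list does not resolve rearranged alleles. A loop missing from a list was not called, which does not show that it is absent.

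From these, length (between anchor midpoints), strength (observed over donut-expected count), matches between states (anchors widened by 10 kb each side, overlapping by at least 1 bp, then paired one to one by distance), merged anchors (within 10 kb) and 95% intervals were computed in Python 3.11.15 with pandas 2.3.3 and SciPy 1.17.1, after the functions were tested on simulated data. Intervals (exact Poisson, exact conditional binomial, Wilson) cover counting error only, and a p-value between states was not computed. Start coordinates are counted from 1. All 27 members are named, as the rule for 40 or fewer requires. The members, windows and lists were chosen with earlier results of these data known. The promoter table held none of Ighm, Ighg1, Igkc and Iglc1.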

Additional observations from a re-analysis of the deposited data

How the results depend on the processing

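No paired analysis was possible because each state has 1 pooled list. The ratio of loop counts (2.38) stayed within its interval under every alternative run, from 1.75 to 3.60. It was 1.75 with all q-values at most 0.01 (genome-wide 2.62), where 4 of the 5 heavy chain group loops were left, and 1.75 with the activated list thinned by the depth ratio under the Poisson limits of the resting list (genome-wide 1.95), where all 5 were left. The latter alternative and matching by centres were chosen after seeing the data. The activated kappa count (4, resting 3) was 1 with both anchors required in the window (resting 2), 7 with windows widened by 500 kb (resting 3) and 2 under thinning with the Poisson limits (resting 3). The resting lambda count (2) was 1 with at least 2 merged pixels. With anchors not widened, 0% of resting and 0% of activated members were shared (genome-wide 24.1% and 10.4%). The log2 strength ratio of heavy chain anchors 1 and 3 (0.73) was 1.28, 0.43 and 1.10 with the lower left, horizontal and vertical backgrounds and -0.70 from observed counts over the depth ratio. The pair from 113890001 on chromosome 12 (-0.55) gave -0.35 with the lower left and -0.24 with the vertical background, and 0.16 over the depth ratio. The lambda pair (-0.11) gave 0.08 with the horizontal background and -0.59 over the depth ratio. The kappa pair from 66915001 (0.04) gave -0.01 with the vertical background, and that from 70760001 (0.20) gave -0.40 over the depth ratio. Apart from the depth ratio's own construction, which leaves out the surroundings, the cause was not tested. Medians of length, counts of merged anchors and the depth ratio stayed within 1.5 times of their values.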

Other observations

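The authors' merged pixels give a second position for the loops of the heavy chain group. In activated cells the centres for anchors 1 and 2 lay at 114472500 and 114566184 (19 pixels merged), those for anchors 2 and 3 at 114581617 and 114652794 (17 pixels), and those for anchors 1 and 3 at 114473750 and 114660500 (20 pixels). The loops on anchor 4 merged 2 pixels each. In resting cells the centres for anchors 1 and 3 lay at 114469500 and 114654500 (15 pixels). At anchor 2 the centre was thus lower for the loop toward anchor 1 than for the loop toward anchor 3. Some centres fell outside the anchors as defined from the pixels. Those at 114472500 and 114473750 lay above anchor 1, and that at 114581617 lay above anchor 2. Those at 114652794 in activated and 114654500 in resting cells lay below anchor 3.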
